A study of Mus musculus with 2 samples.

Results

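Pdyn, Cpb2, Aqp4, Mlxipl, Filip1 and Defb1 are 6 of the 33038 genes listed in single-cell RevGel-seq libraries of mouse islets, and all 6 were listed in both libraries. They had been picked out because their levels were raised in beta cells with a low share of insulin transcripts, so the values by insulin share and by Ppy share in insulin cells are given as a description. The fit across all genes also held the insulin contrast, but no p-value of it is given for the members. The samples were control pancreatic islets of male C57BL/6J mice at 8 weeks, without genetic change or treatment, prepared as 2 technical replicates of 10000 input cells each. RevGel-seq links every cell to a barcoded bead, spreads the complexes in a hydrogel and counts deduplicated transcripts (unique molecular identifiers, UMIs) per gene and barcode. Because both libraries came from the same islet preparation, SDs and p-values hold only the spread between technical libraries and no spread between animals.

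Beta cells make insulin from Ins1 and Ins2, whose transcripts can fill a large part of a cell's RNA, and mature beta cells also carry genes for glucose uptake and sensing. Alpha cells make glucagon (Gcg), delta cells somatostatin (Sst) and gamma cells pancreatic polypeptide (Ppy). The 6 genes do not belong to a common pathway. Mlxipl encodes ChREBP, a transcription factor that switches on genes of glycolysis and lipid synthesis when glucose is high. Pdyn encodes prodynorphin, the precursor of opioid peptides that act on the kappa receptor. Cpb2 encodes a carboxypeptidase of blood plasma that slows the breakdown of fibrin, Aqp4 a water channel best known from astrocytes, Filip1 a protein that binds filamins, and Defb1 an antimicrobial peptide of epithelia.

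Library 1 held 735 cells with 15931154 UMIs and library 2 held 748 cells with 17440292, and the 2 libraries shared 0 barcodes. A cell was assigned to a hormone from 1% of its UMIs. By that rule 219 and 217 cells had insulin, 182 and 190 of them with no other hormone. A level below is the number of UMIs of a gene per 1000000 UMIs of all genes other than Ins1, Ins2, Gcg, Sst and Ppy, summed over the cells of a group in 1 library. On the scale of all UMIs, a cell with less insulin has a higher value of every other gene by construction, which is why the 5 hormone genes were taken out of the total. Intervals on levels are 95% exact Poisson intervals and cover counting error only.

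Start sites of 2 members are shown because levels are counted per gene and both genes have several starts that the counts cannot separate, and because these windows hold a motif searched for. Pdyn also has more than 1 start, and neither of its windows held a motif. All coordinates are on GRCm38, the build of the files. Mlxipl (chr5:135089890-135138382, plus strand) has 2 starts in RefSeq and Filip1 (chr9:79815051-80012851, minus strand) has several. The 250 bases before both starts of Mlxipl and before the most upstream start of Filip1 were taken from RefSeq (GRCm38.p6) and are given 5′ to 3′. Capitals mark CACGTG, an E-box, and TAATTA, a homeodomain core, both palindromes and thus the same on both strands.
Mlxipl upstream start, chr5:135089640-135089889, plus strand: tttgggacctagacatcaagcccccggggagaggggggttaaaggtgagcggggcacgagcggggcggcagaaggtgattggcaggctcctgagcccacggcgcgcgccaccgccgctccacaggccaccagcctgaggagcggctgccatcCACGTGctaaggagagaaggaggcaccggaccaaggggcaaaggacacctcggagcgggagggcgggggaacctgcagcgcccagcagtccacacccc
Mlxipl downstream start, chr5:135106641-135106890, plus strand: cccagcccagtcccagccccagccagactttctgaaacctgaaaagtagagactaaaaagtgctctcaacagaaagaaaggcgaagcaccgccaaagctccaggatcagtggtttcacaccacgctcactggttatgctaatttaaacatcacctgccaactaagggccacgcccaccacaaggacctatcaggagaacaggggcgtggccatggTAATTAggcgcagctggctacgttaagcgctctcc
Filip1 upstream start, chr9:80012852-80013101, minus strand: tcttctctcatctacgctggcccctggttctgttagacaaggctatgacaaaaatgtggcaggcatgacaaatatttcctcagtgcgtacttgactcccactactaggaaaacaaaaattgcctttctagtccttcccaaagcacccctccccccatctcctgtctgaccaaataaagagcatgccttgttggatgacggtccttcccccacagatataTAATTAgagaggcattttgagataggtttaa
The E-box begins 98 bases before the upstream Mlxipl start, and TAATTA begins 35 bases before its downstream start and 31 bases before the Filip1 start. These motifs were chosen after the sequences had been read, and 5 of the 9 windows of the members held neither. Of 32851 such windows in the table, 6.02% held CACGTG and 4.84% held TAATTA. The match is a description of letters and not a binding site.

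The other members lie on chromosomes 2 (Pdyn, chr2:129686565-129699844, minus strand), 14 (Cpb2, chr14:75242287-75283555, plus strand), 18 (Aqp4, minus strand) and 8 (Defb1, chr8:21776599-21795185, plus strand). Pdyn and Defb1 overlap no other annotated gene. Mlxipl overlaps Gm43500 on the opposite strand, and Aqp4 and Filip1 also overlap annotated loci on the opposite strand, from which reads cannot be told apart where the counting did not use strand. Cpb2 overlaps Gm44482 and Gm18147 on its own strand, and Filip1 overlaps Gm20477.

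Mlxipl was detected in nearly every insulin-only cell, 99.5% of them in library 1 and 97.9% in library 2. Its level was 988 (95% interval 951 to 1026) in library 1 and 984 (944 to 1024) in library 2, or 986 ± 3.02 (SD, n = 2). Both libraries thus gave the same level within counting error. Of insulin-only cells, 83.0% and 75.3% held 5 or more Mlxipl UMIs. With every cell thinned to 2000 non-hormone UMIs, a Mlxipl UMI was seen in 83.0% and 75.8% of insulin-only cells, against 7.69% and 6.32% of Gcg-only cells. The unthinned shares in Gcg-only cells were 27.5% and 27.0%, at median depths of 12693 and 14560 non-hormone UMIs against 11753 and 10188 in insulin-only cells.

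Pdyn was concentrated in few insulin-only cells. It had a UMI in 29.1% of them in library 1 and 23.7% in library 2, while the tenth of cells with most UMIs held 75.6% and 77.8% of the total. The variance of its UMIs per cell was 12.6 and 8.01 times the mean. The highest single cells held 30 and 24 Pdyn UMIs. Its level was 118 in library 1 and 74.1 in library 2, and these intervals (106 to 132 and 63.6 to 85.9) did not overlap.

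Filip1 and Defb1 lay between these patterns. Filip1 had a UMI in 74.2% and 74.7% of insulin-only cells with levels of 164 and 192, and Defb1 in 55.5% and 57.9% with levels of 99.7 and 107. Aqp4 had a UMI in 25.8% and 31.1%, at 42.1 and 59.8. Cpb2 was the least covered, with 60 UMIs in library 1 and 30 in library 2 over all insulin-only cells, and levels of 22.1 and 12.6. A single cell held 18 of the 60 Cpb2 UMIs in library 1 and 8 of the 30 in library 2.

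**Figure D1:**
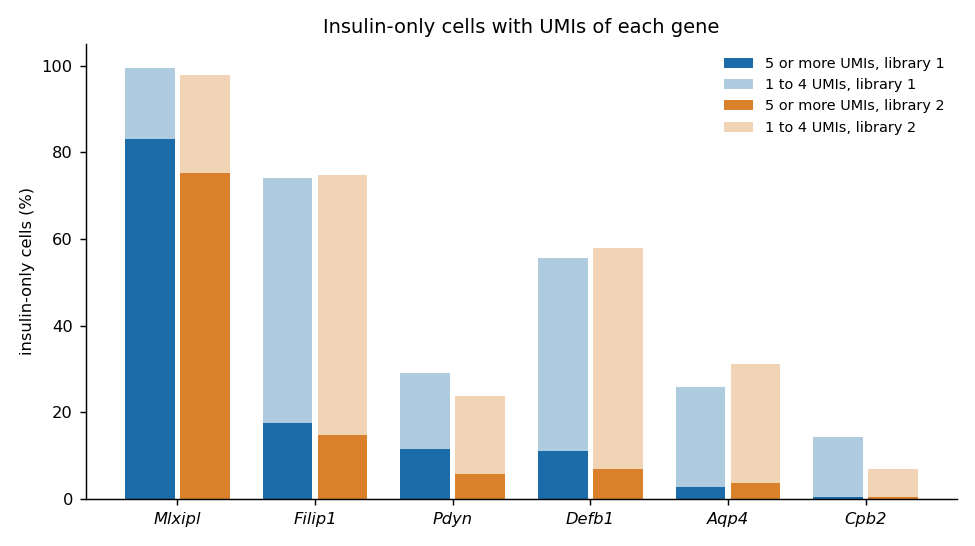
Share of insulin-only cells (%) with UMIs of each gene in library 1 (blue, 182 cells) and library 2 (orange, 190 cells); the full colour marks cells with 5 or more UMIs and the pale part cells with 1 to 4. Mlxipl reaches 99.5% and 97.9%, mostly with 5 or more UMIs, while Cpb2 reaches 14.3% and 6.84%.

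Detection of the members in the same cells did not follow 1 direction over the pairs, and pairs with Pdyn are given as examples. After thinning, a Pdyn UMI was seen in 27 of 182 and 20 of 190 insulin-only cells. Aqp4 was seen in 25.9% of the Pdyn cells against 3.87% of the other cells in library 1, but in 15.0% against 9.41% in library 2. Defb1 was seen in 14.8% of the Pdyn cells against 12.3% of the others in library 1, and in 1 of the 20 Pdyn cells against 22.9% of the others in library 2, where the order was turned. No test was run on these shares, since cells of 1 library are not replicates.

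The relation to insulin share differed between the 6 genes and, for some, between the libraries. Of the insulin-only cells, only 9 in library 1 and 5 in library 2 had insulin below 20% of their UMIs, so the description rests mainly on cells below 30% (31 and 24) and at 30% or more (151 and 166). Mlxipl, Cpb2, Aqp4 and Defb1 had higher levels below 30% insulin in both libraries by at least 0.25 on the log2(level + 10) scale. Filip1 was higher by 0.29 in library 1 and 0.08 in library 2. Pdyn was higher by 0.65 in library 1 and lower in library 2, at -0.12, so the description of the set as raised in insulin-low cells does not hold for Pdyn in library 2. In all, 5 of 6 members were higher in both libraries, beside 32% of the 13020 genes tested in these cells. Since the members were picked from this contrast, nothing is read from that count.

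Mlxipl had a lower level in each higher band of insulin from 20% upward. In library 1 its level was 1162 at 20 to 30% insulin, 1023 at 30 to 40%, 831 at 40 to 50% and 749 at 50% or more. In library 2 it was 1502, 1020, 829 and 798. The order of the 4 bands was the same in both libraries. The counting intervals of the upper 2 bands overlapped in both libraries and those of the lower 2 in library 1, while the step from 30 to 40% to 40 to 50% lay outside them in both. Over single cells, Spearman's rho of the Mlxipl level with the insulin share was -0.38 (182 cells) and -0.37 (190 cells), given as a description because cells of a library share its preparation.

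Aqp4 was low in cells with the most insulin. It went from 71.1 at 20 to 30% insulin through 36.1 and 36.6 to 9.99 at 50% or more in library 1, and from 166 through 54.5 and 44.2 to 5.74 in library 2. The upper band held 2 Aqp4 UMIs in each library. Below 30% insulin, a single cell held 20.5% and 28.1% of the Aqp4 UMIs.

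Defb1 and Cpb2 were higher in cells below 30% insulin, with less even support. Defb1 was at 115 below 30% against 95.0 at 30% or more in library 1, where the counting intervals overlapped (90.1 to 145 and 82.2 to 109), and at 171 against 95.8 in library 2, where they did not (131 to 221 and 82.8 to 110). Cpb2 was at 48.8 against 13.98 and at 42.8 against 7.41. However, 1 cell held 58.1% of the Cpb2 UMIs below 30% insulin in library 1 and 1 cell held 53.3% in library 2, with 31 and 15 UMIs in all.

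Filip1 showed no order by band that was shared between libraries. It was highest at 50% insulin or more in library 1, at 265, and at 178 in the same band of library 2. Pdyn in library 1 was at 147, 96.2, 128 and 54.9 over the 4 bands from 20% upward, and in library 2 at 86.6, 58.0, 84.7 and 94.7.

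**Figure D2:**
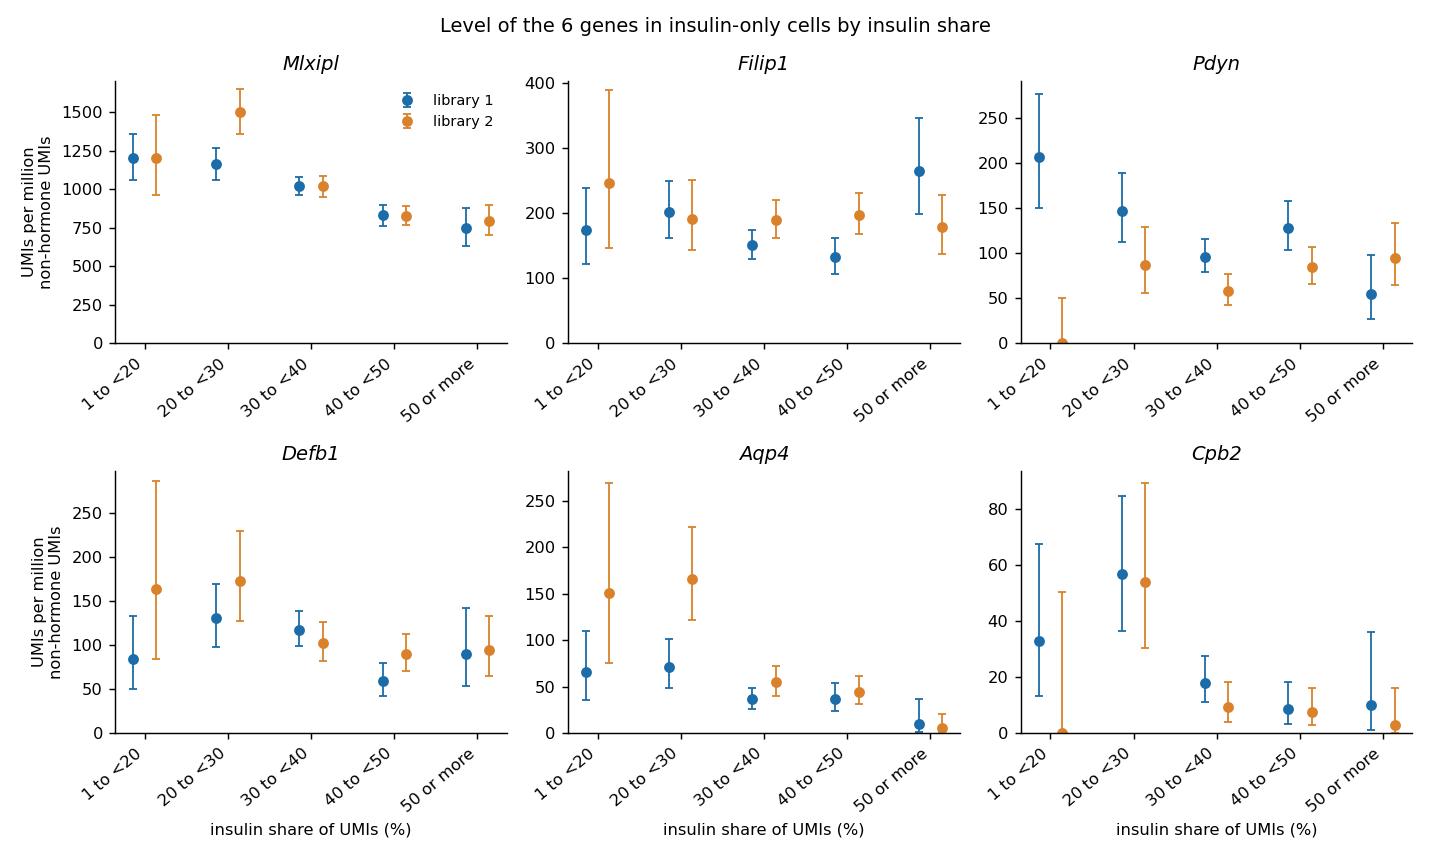
Level of each gene (UMIs per 1000000 non-hormone UMIs, linear axis from 0) in insulin-only cells by insulin share of UMIs, for library 1 (blue) and library 2 (orange); points are sums over the cells of a band and bars 95% exact Poisson intervals. Mlxipl and Aqp4 are lower at 50% insulin or more than at 20 to 30% in both libraries, and the lowest band, with only 9 and 5 cells, does not continue that order throughout.

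The 14 cells below 20% insulin need to be read one by one. One cell of library 1, with 79715 UMIs, held 25 of the 44 Pdyn UMIs of its group and also 226 UMIs of the 5 leukocyte markers. One cell of library 2, with insulin at 2.02%, held 293 such UMIs and 0 UMIs of every member. No cell at 20% insulin or more held 10 or more leukocyte marker UMIs. The summed leukocyte marker level was 1060 and 4017 below 20% insulin against 12.0 and 20.9 at 20% or more, with Cd3e, a T cell marker, at 0 in both low groups. The summed delta marker level without Sst was 868 and 519 against 180 and 310, with Ghsr at 0 in these 4 sums, and that of beta markers without insulin was 33559 and 24429 against 57500 and 58200.

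With the limit at 20%, the median over the 6 members of the log2 difference between insulin-low and insulin-high cells was 0.20, and 0.59 without the cells rich in leukocyte markers. Pdyn differed by 0.84 in library 1 and by -3.11 in library 2, where the 5 low cells held no Pdyn UMI (3 counts would be a level of 41.0) and the high cells were at 76.5. Without the marker-rich cells the Pdyn difference in library 1 was 0.24. Cpb2 also changed direction, at 0.46 and -1.20, with 0 UMIs in the 5 low cells of library 2. Defb1 differed by -0.23 and 0.60, and by 0.28 and 0.91 without the marker-rich cells. Aqp4 (0.60 and 1.26) and Filip1 (0.09 and 0.35) were higher in both libraries. Mlxipl differed by 0.31 and 0.30, and by 0.80 and 0.63 without the marker-rich cells. At the 30% limit the median was 0.51, and 0.61 without them. The part of leukocyte or delta transcripts in the differences was not tested.

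At the other end of the rule, the cells just inside the threshold of 1% insulin all carried another hormone at 1% or more and none was insulin-only. The 2 cells of library 1 with insulin from 1 to 2% held 0 UMIs of all 6 genes, and the 3 such cells of library 2 held 4 of Mlxipl and 10 of Filip1. Just outside, from 0.5 to 1% insulin and whatever the other hormones, Mlxipl was at 176 over 9 cells of library 1 and 418 over 5 cells of library 2.

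Cells with insulin and some Ppy were described next, again without a test. In library 1, the 24 cells with insulin and at least 0.2% Ppy, and without Gcg or Sst, had higher levels of all 6 members than the 170 cells below 0.2%. Cpb2 was at 125 against 12.9 and had a UMI in 58.3% against 11.8% of cells, Pdyn at 257 against 97.8, Defb1 at 168 against 90.5 and Aqp4 at 77.8 against 38.8. In library 2 (17 and 181 cells) Pdyn was at 104.8 against 76.5 with overlapping intervals (69.6 to 151 and 65.5 to 88.8), and 1 cell held 75% of the 28 UMIs behind the first value. The difference there was smaller for Cpb2, at 22.4 against 13.3 with 6 UMIs behind the first value, and was turned for Aqp4, at 29.9 against 60.1. Over all insulin shares, Mlxipl was higher with Ppy in both libraries, at 1212 against 958 and 1104 against 968. So was Defb1, at 157 against 107 in library 2.

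Ppy-containing cells were also poorer in insulin, and 20 of 24 and 12 of 17 of them lay below 30%. Among cells below 30% insulin, Cpb2 in library 1 was at 129 with at least 0.2% Ppy against 15.8 without, whereas in library 2 it was at 28.1 against 53.8. In the same cells Mlxipl was at 1219 against 1103 in library 1, but the order was turned in library 2, at 1055 against 1485. Those library 2 intervals (922 to 1202 and 1346 to 1636) did not overlap. Defb1 stayed higher with Ppy, at 145 against 99.3 and 197 against 172. Among the cells at 30% insulin or more, only 4 and 5 had as much Ppy. The share of the difference that goes with Ppy and the share that goes with insulin cannot be told apart at these numbers of cells.

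Outside insulin cells, Mlxipl, Filip1 and Pdyn were high in somatostatin cells as well. Mlxipl was at 501 and 821 in Sst-only cells (35 and 23 cells), 491 and 514 in cells with Sst and Ppy (77 and 71), 137 and 79.7 in Ppy-only cells (54 and 68), 56.5 and 47.3 with Gcg and Ppy (65 and 86), and 36.9 and 30.1 in Gcg-only cells (182 and 174). The order from insulin-only through Sst, Ppy and Gcg cells was the same in both libraries, and Sst-only and Sst with Ppy did not separate in library 1. Filip1 was at 246 and 305 in Sst-only cells, above its 164 and 192 in insulin-only cells, and at 13.7 and 11.7 in Gcg-only cells. Pdyn was at 134 and 111 in Sst-only cells, against 118 and 74.1 in insulin-only cells, and the counting intervals overlapped in both libraries.

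Cells with Sst and Ppy also held Pdyn, at 42.8 and 87.8, while it was nearly absent from cells with Gcg alone, Gcg and Ppy, or Ppy alone. Gcg-only cells held 1 Pdyn UMI in library 1 and 0 in library 2, cells with Gcg and Ppy also 1 and 0, and Ppy-only cells 4 and 0. Over both libraries the Pdyn level in Sst-only cells was 680 times that in Gcg-only cells, with a counting interval of 119 to 27136 set by the single UMI.

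Aqp4 had 0 UMIs in Sst-only cells and 0 in cells with Gcg and Ppy in both libraries, against 256 in insulin-only cells, which makes its level at least 12.6-fold and 42.9-fold higher there, with 3 counts over the group as the floor. Gcg-only cells were at 4.57 and 0.71. Cells without any of the hormones were at 21.4 and 6.95, and 1 cell held 82.4% of the former. Defb1 was at 99.7 and 107 in insulin-only cells, 52.7 and 30.2 in Sst-only, 38.7 and 27.0 in Ppy-only and 19.0 and 17.7 in Gcg-only cells, and the Sst-only and Ppy-only intervals overlapped in both libraries. The Cpb2 counting intervals of insulin-only, Sst-only and Ppy-only cells overlapped in both libraries. Over both, Sst-only cells held 8 Cpb2 UMIs and Ppy-only cells 24.

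**Figure D3:**
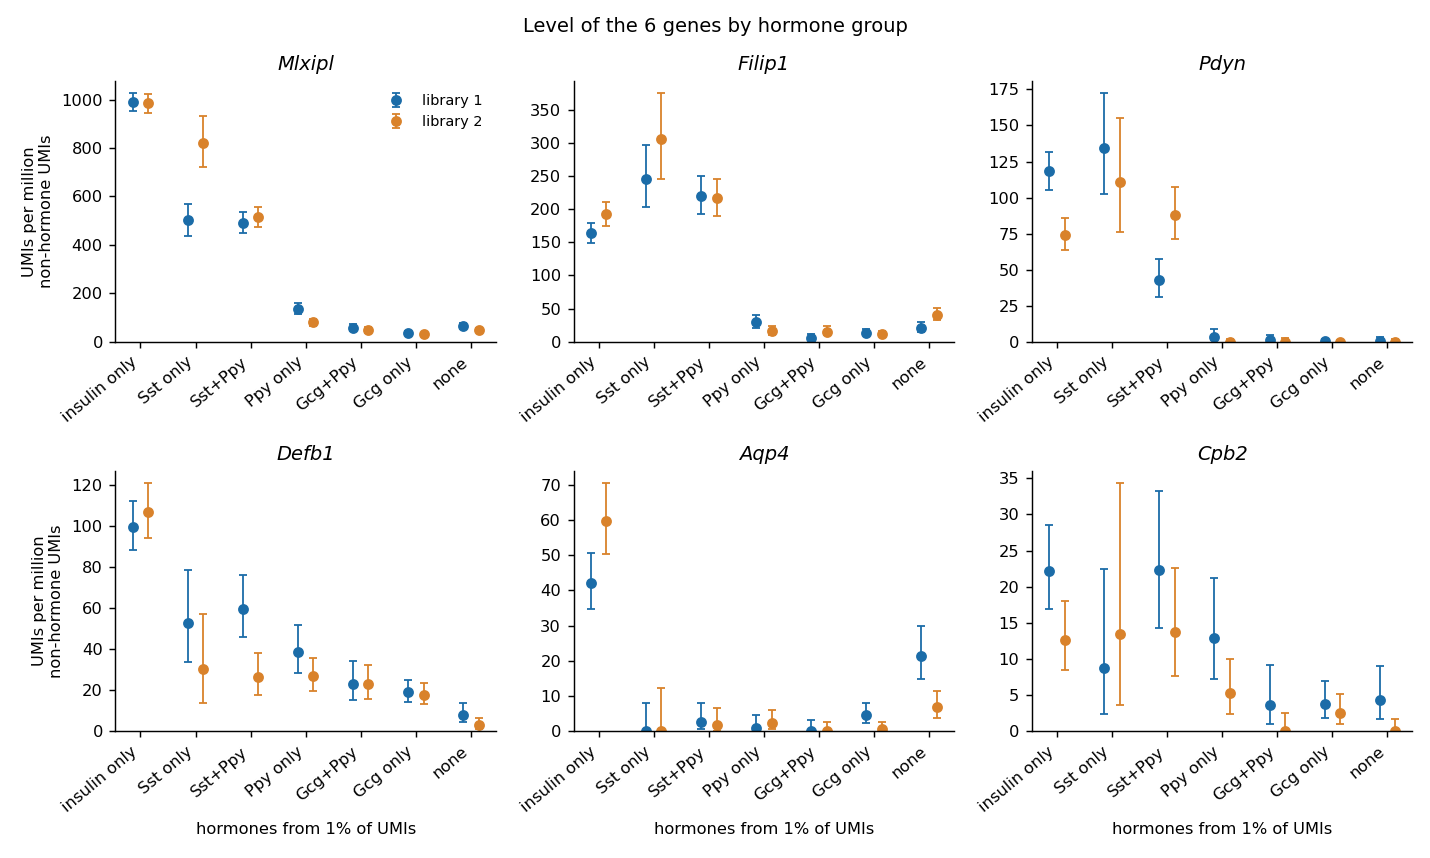
Level of each gene (UMIs per 1000000 non-hormone UMIs, linear axis from 0) by hormone group in library 1 (blue) and library 2 (orange); points are sums over the cells of a group and bars 95% exact Poisson intervals. Mlxipl, Filip1 and Pdyn are high in insulin-only and Sst cells, and Aqp4 in insulin-only cells.

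Differences between the other hormone groups were tested on the sums per group and library with edgeR's quasi-likelihood test, in 1 fit of 14 sums. The members are named for the insulin contrast, but they were chosen with earlier results of these data known. Their p-values are therefore not taken as independent of that choice. Between Gcg-only and Sst-only cells, 4 of 6 members were called, all lower in Gcg-only cells, beside 15.5% of 13274 genes (7.28% higher and 8.25% lower). Mlxipl had a log2 ratio of Gcg-only to Sst-only of -4.16 (SE 0.21, edgeR adjusted p = 1.9e-15) and Filip1 of -4.31 (SE 0.25, edgeR adjusted p = 2.2e-14). For Pdyn the edgeR adjusted p was 6.0e-10, with the ratio above as its size. Defb1 differed by -1.13 (SE 0.39) with an edgeR adjusted p of 0.046, which rose to 0.11 without the top cell of the gene in each sum, to 0.092 and 0.14 without Gcg-only library 1 or 2, and to 0.67 without Sst-only library 1. Cpb2 (-1.64, SE 0.87, edgeR adjusted p = 0.23) and Aqp4, with 14 UMIs against 0, did not pass.

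Between Sst-only and Ppy-only cells, 3 of 6 members were called, all higher in Sst-only cells, beside 12.3% of genes (6.6% higher and 5.73% lower). Mlxipl differed by 2.53 (SE 0.20, edgeR adjusted p = 5.6e-11), Filip1 by 3.55 (SE 0.25, edgeR adjusted p = 5.8e-12) and Pdyn by 6.29 (SE 0.70, edgeR adjusted p = 5.4e-08). The Pdyn value had 4 UMIs behind the lower level, so its size was left to the fit's prior count. It ran from 5.02 to 10.3 over the alternative settings, a spread that its SE does not hold. Between Gcg-only and Ppy-only cells, Mlxipl alone of the 6 was called, at -1.63 (SE 0.23, edgeR adjusted p = 4.1e-06), beside 14.6% of genes (7.07% higher and 7.56% lower). Filip1 (-0.76), Defb1 (-0.78) and Cpb2 (-1.42) did not pass after adjustment, with adjusted p of 0.11, 0.073 and 0.16 from edgeR. Without Ppy-only library 2, Filip1 passed at 0.0496. Mlxipl thus passed the threshold both from Sst-only to Ppy-only and from Ppy-only to Gcg-only cells. The 3 contrasts share their sums, so they are not independent of each other.

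The presence of Ppy beside Gcg or Sst went with no called difference in the members. Some members had too few UMIs for a call to be likely, and nothing is read from their part in these counts. Over both libraries, Pdyn had 1 UMI with Gcg and Ppy and 1 with Gcg alone, and Aqp4 had 0 and 14. Aqp4 also had 5 UMIs with Sst and Ppy and 0 with Sst alone. Between cells with Gcg and Ppy and Gcg-only cells, edgeR called 0 of 6 members, 2 at an unadjusted p under 0.05, beside 0.294% of genes (0.203% higher and 0.0904% lower), and DESeq2 also called 0. Mlxipl was at 56.5 and 47.3 with Ppy and 36.9 and 30.1 without, and the fitted difference was 0.61 on the log2 scale (SE 0.27, edgeR adjusted p = 0.59). Between cells with Sst and Ppy and Sst-only cells, edgeR called 0 of 6, 1 at an unadjusted p under 0.05, beside 0.0226% of genes (0.0151% higher and 0.00753% lower), and DESeq2 also called 0. Pdyn was at 42.8 and 87.8 with Ppy and 134 and 111 without, and the fitted difference was -0.90 on the log2 scale (SE 0.39, edgeR adjusted p = 0.75). The difference between these effects of Ppy, tested as an interaction, was called for 0 of 6 members by edgeR, 2 at an unadjusted p under 0.05, beside 0.0753% of genes (0.0527% higher and 0.0226% lower). DESeq2 was not run on that interaction.

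**Figure D4:**
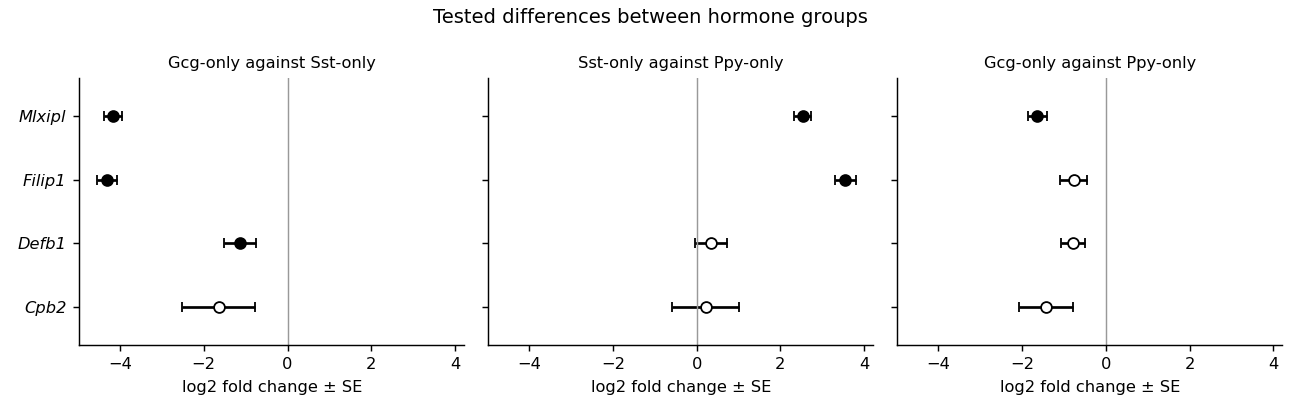
Log2 fold change ± SE from edgeR for 4 members in the 3 contrasts between hormone groups; filled points passed an adjusted p of 0.05 and open points did not. Mlxipl is filled in all panels, at -4.16, 2.53 and -1.63. Pdyn and Aqp4 are left out because a group with 0 to 4 UMIs leaves their fold change to the fit's prior count.

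Genes that work with the members were counted in cells below 30% insulin against 30% or more, where edgeR called 7.9% of 13020 genes (4.05% higher and 3.85% lower). At this limit the summed delta marker level without Sst was 643 and 1054 in the cells with less insulin against 109 and 189. Ghsr had no UMI in any of these sums, and Ptprz1 had none in library 2 at 30% or more. The leukocyte level was 365 and 857 against 11.6 and 20.7, and the endothelial level 342 and 19.99 against 26.5 and 27.2. Only cells rich in leukocyte markers were taken out, and the part of the other cell types was not tested. Because the cells were split by insulin and the lists were chosen with earlier results known, these counts are a description. Of 14 carbohydrate response partners and targets tested, 4 were called higher below 30% insulin and 1 lower, with a median log2 fold change of 0.18 beside -0.01 over all genes. The former were Txnip, at 731 and 654 against 230 and 235, Rgs16, at 202 and 377 against 64.1 and 68.7, Klf10, at 83.5 and 103 against 41.5 and 39.5, and Arrdc4, at 42.5 and 48.5 against 14.5 and 25.2. Txnip and Arrdc4 encode arrestin-like proteins that restrain glucose uptake. Acly, which makes acetyl-CoA for lipid synthesis, was called lower, at 784 and 982 against 1102 and 1197. Mlx, the partner of ChREBP, was at 25.2 and 11.4 against 19.8 and 29.6, and was not called. The lipid synthesis genes Fasn, Acaca and Elovl6 were not called either. Without the cells rich in leukocyte markers, where edgeR called 7.07% of genes (3.56% higher and 3.51% lower), Txnip, Rgs16, Klf10, Arrdc4 and Acly were again the called genes of the list.

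Of 11 genes of beta cell maturity tested, 8 were called lower below 30% insulin, with a median of -1.23. Mafa, a transcription factor of mature beta cells, was at 295 and 117 against 1428 and 1406. Ucn3, a peptide of mature beta cells, was at 112 and 120 against 681 and 601, and Slc2a2, the glucose transporter GLUT2, at 214 and 286 against 787 and 817. Pdx1, at 296 and 251 against 349 and 351, was not called, nor was Iapp. The count of 8 lower was the same without the marker-rich cells.

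The other lists held few tested genes at this limit. In the opioid list, Pomc alone was tested, at 42.5 and 17.1 against 34.7 and 30.6, and not called, and the receptors Oprk1, Oprm1 and Oprd1 had 0 UMIs in these sums without the marker-rich cells. Of 7 carboxypeptidase and plasmin genes tested, Cpe, the enzyme that trims proinsulin, was called lower at 2607 and 2804 against 3170 and 3189, but 0 were called without the marker-rich cells. Among aquaporins 1 gene, Aqp11, was tested and 0 were called. Of 3 filamin genes tested 0 were called, and none of 8 host defence genes had enough counts to be tested. With the limit at 20%, where edgeR called 8.9% of genes (4.52% higher and 4.38% lower), Aqp11 was called lower and Flna and Filip1l higher, the latter 2 with levels of 84.4 and 0, and 4.69 and 123, in the low cells of library 1 and 2. Gpd1 and Iapp were called lower and Scd1 higher at that limit, while Arrdc4 and Klf10 were not called.

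For each member the 3 genes with the most similar profile were taken over the 14 sums of 7 groups and 2 libraries, as Pearson's r of log2(level + 10) among 8265 candidates. For Mlxipl these were Pdx1 (r = 0.99), Enho (0.98) and Gm43500 (0.98), and the last overlaps Mlxipl on the opposite strand. Pdx1 was at 345 and 337 in insulin-high, 154 and 154 in Sst-only and 6.48 and 1.42 in Gcg-only cells. For Filip1 they were Frzb, Npnt and St3gal5 (0.98 each), and for Pdyn Entpd3, Slc12a7 and Cntn1 (0.93, 0.93 and 0.92). For Aqp4 they were Ky (0.96), Pkib (0.96) and Eif2b5 (0.94), for Defb1 Chst11 (0.95), Derl1 (0.94) and Insig1 (0.93), and for Cpb2 Rab5c (0.93), A230057D06Rik (0.91) and Eif4g2 (0.90). Several sums held few or no UMIs of Cpb2, Aqp4 and Pdyn, so the matches of these members rest on few counts. Rab5c, the closest to Cpb2, ran only from 54.7 to 113 over the sums. The sums share libraries and groups, so these values of r carry no p.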

How the data were processed

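The 2 control islet libraries at 8 weeks were analysed. Per the study's methods, the deposited tables hold UMI counts per gene and cell barcode, made by the authors with Cytonaut. The steps were exonic alignment to GRCm38 with Ensembl genes, deduplication, and a depth threshold on barcodes set with UMI-tools. Strand use in counting is not given in the sources used here. No cell fell below 200 genes or above 20% mitochondrial UMIs. Scrublet marked 8 cells per library, which were kept.

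Computed here: hormone groups from 1% of UMIs, insulin-low below 20% insulin, levels per 1000000 non-hormone UMIs, log2(level + 10), and exact Poisson and Clopper-Pearson intervals at 95%. Sums of 7 groups in 2 libraries were fitted with edgeR 4.0.16 in R 4.3.3 (filterByExpr, TMM, glmQLFit, glmQLFTest, Benjamini-Hochberg threshold 0.05; residual degrees of freedom 7). DESeq2 1.42.0 was an alternative. The edgeR step was tested on simulated data. Sums of the same number come from the same library and are paired by it; a library block is an alternative. Insulin-low sums hold 9 and 5 cells but share the spread estimated over all sums.

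The genes named are the 6 members, the called genes of the lists and the 3 most similar profiles (mean level at least 20); list genes that were not called, motifs and promoter windows were added after values were seen. Members and lists were chosen with earlier results of these data known. Python 3.11.15 with scanpy 1.11.5 was used. Promoter windows were in the table used for 4 of 6 members; that of Defb1 was not analysed here. Some genes of the lists are not reported here.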

Additional observations from a re-analysis of the deposited data

How the results depend on the processing

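The median log2 difference of the 6 members between insulin-low and insulin-high cells is the result that depends most on the processing. It was 0.20 as the median of the member means, and 0.32 and 0.38 in either library alone. It was 0.69 per 1000000 of all UMIs, 0.51 with the limit at 30% insulin and -0.84 with it at 10%, 0.30 with cells of other hormones kept, -0.083 and 0.31 with the hormone threshold at 0.5% and 2%, 0.30 as a mean of per-cell levels and 0.028 without the top cell. After seeing the data, leaving out cells with 10 or more leukocyte marker UMIs gave 0.59, and 0.61 at the 30% limit.

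Genes called between Gcg-only and Sst-only cells ranged from 1256 to 1587 when 1 sum was left out (2062 with all), between Gcg-only and Ppy-only from 1010 to 1269 (1943), between Sst-only and Ppy-only from 956 to 1272 (1637), with Gcg and Ppy against Gcg-only from 16 to 24 (39), with Sst and Ppy against Sst-only from 1 to 4 (3), and insulin-low against insulin-high from 476 without insulin-low library 1 to 1367 (1182). Without Sst-only library 1, the counts moved by over 1.5 times for Gcg-only against Sst-only, Sst-only against Ppy-only, and Sst and Ppy against Sst-only. Without Ppy-only library 2 they did so for Sst-only against Ppy-only, and without insulin-low library 1 for insulin-low against insulin-high. For Gcg-only against Ppy-only and for Gcg and Ppy against Gcg-only, they did so without any 1 of their 4 sums. The 39 became 133 without the filter on low counts, 93 with DESeq2 and 18 at a hormone threshold of 0.5%. The 3 became 46, 6 and 1 in the same order. The 1182 became 2037 at a threshold of 0.5% and 405 with the limit at 10%. The split of higher and lower calls moved from 967 and 1095 to 769 and 1336 without TMM and 804 and 1401 with DESeq2 for Gcg-only against Sst-only, from 876 and 761 to 1024 and 605 and to 1105 and 656 for Sst-only against Ppy-only, and from 600 and 582 to 777 and 344 and to 1052 and 343 for insulin-low against insulin-high. Without TMM the median of all genes moved from 0.03 to -0.08, from -0.02 to 0.07 and from -0.16 to 0.00 in these contrasts. The causes were not tested.

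Of 360 alternative values for the members in the 5 tested contrasts, 352 kept the side of the threshold, and 27 of 30 results did so under all alternatives. These counts include results with too few UMIs for a call to be likely under any alternative. Pdyn between Gcg-only and Ppy-only cells, for example, ran from a log2 fold change of -3.91 to 1.59 without a call. Defb1 lost its call between Gcg-only and Sst-only cells in 6 of 12, without the low-count filter at 0.056 and at the 0.5% threshold at 0.36 among them. Cpb2 gained one there at the 2% threshold (0.017), and Filip1 gained one between Gcg-only and Ppy-only cells without Ppy-only library 2. With the replicate block the counts were 1993, 1939, 1597, 36, 4 and 1127 in the order above, and no call on a member changed. Depth limits Cpb2 and Aqp4 most, with 90 and 256 UMIs in insulin-only cells.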
